A study of Saccharomyces cerevisiae with 30 samples.

Results

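The step from time point 4 to time point 5 of the yeast metabolic cycle was compared within the strain that carries a W89A substitution in the binding pocket of the YEATS domain of Yaf9. The comparison set the 3 W89A libraries of time point 5 against the 3 W89A libraries of time point 4, which are 6 of the 30 libraries of the series, over 6256 genes. Both strains of the series, the W89A mutant and a wild type (WT), were budding yeast, Saccharomyces cerevisiae, with CEN.PK122-alpha as the strain background. They were grown to starvation in a chemostat and then fed low-glucose medium, and total RNA was sequenced at 5 time points of 3 consecutive cycles. No separate cultures were stated, so p-values measure the spread between cycles, and strain and culture cannot be told apart. Libraries held 16540627 to 20260295 counts each.

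The metabolic cycle is an oscillation of oxygen consumption in dense, glucose-limited yeast cultures, in which respiratory bursts alternate with slower respiration. In its known order, genes for ribosome production, for mitochondria and cell division, and for stress survival and carbon storage are expressed one after another. Yaf9 is a subunit of both SWR1, which places the histone variant Htz1 in nucleosomes, and NuA4, which acetylates histones. Its YEATS domain recognises acylated histone lysines.

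With all 6 libraries in the fit, the number of calls depends on the assignment of 2 of them. The authors' deposited comparison tables place the first-cycle W89A libraries at time points 5 and 4 in the reverse of their title order, and the 28 other libraries follow the titles. The placement in the deposited tables was used. By title order, edgeR called 0 of 6256 genes, with 334 at an unadjusted p under 0.05, and DESeq2 called 2. With both first-cycle libraries left out, 1587 genes passed, and 1531 of them were among the 2202 called with all 6 libraries. As placed, the first-cycle library of time point 5 differed from those of cycles 2 and 3 by a root mean square log2 difference of 0.464 and 0.508, and from the time point 4 libraries of these cycles by 0.839 and 0.757. The first-cycle library of time point 4 differed by 0.471 and 0.708 from the 2 others of its group. From the time point 5 libraries of cycles 2 and 3 it differed by 0.871 and 0.882. Every call below holds for the placement in the deposited tables.

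The time point 4 library of cycle 3 stood apart from the 2 others of its group. Its root mean square log2 difference from them was 0.708 and 0.678, against 0.471 between those 2 and 0.464 to 0.508 within time point 5. Its 10 most abundant genes took 7.52% of its counts, against 12.51% and 12.43% in cycles 1 and 2. Without it 2308 genes passed, 1940 of them shared with the 2202.

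Messenger RNAs for building ribosomes rose together at this step, while those of the mitochondrial ribosome, of mitochondrial import and of the alpha-specific genes fell. Of 6256 genes tested, 2202 (35.2%) passed an adjusted p of 0.05 by edgeR's quasi-likelihood test with Benjamini-Hochberg adjustment. At time point 5, 1446 (23.1%) were higher and 756 (12.1%) lower, and 663 (10.6%) differed at least 2-fold, 471 upward (7.53%) and 192 downward (3.07%). The 3 and 3 libraries did not overlap for 2712 genes (43.4%). The median log2 fold change over all genes was 0.10. In bulk RNA, fewer cells with a transcript and less of it per cell cannot be told apart. Scaling without the 10 most abundant genes moved that median to -0.02 and the split to 1030 higher and 1054 lower. Levels are CPM, counts scaled to a common size by the TMM-normalized library total, listed in the order of cycles 1, 2 and 3, and fold changes are log2 with their standard error (SE).

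**Figure D1:**
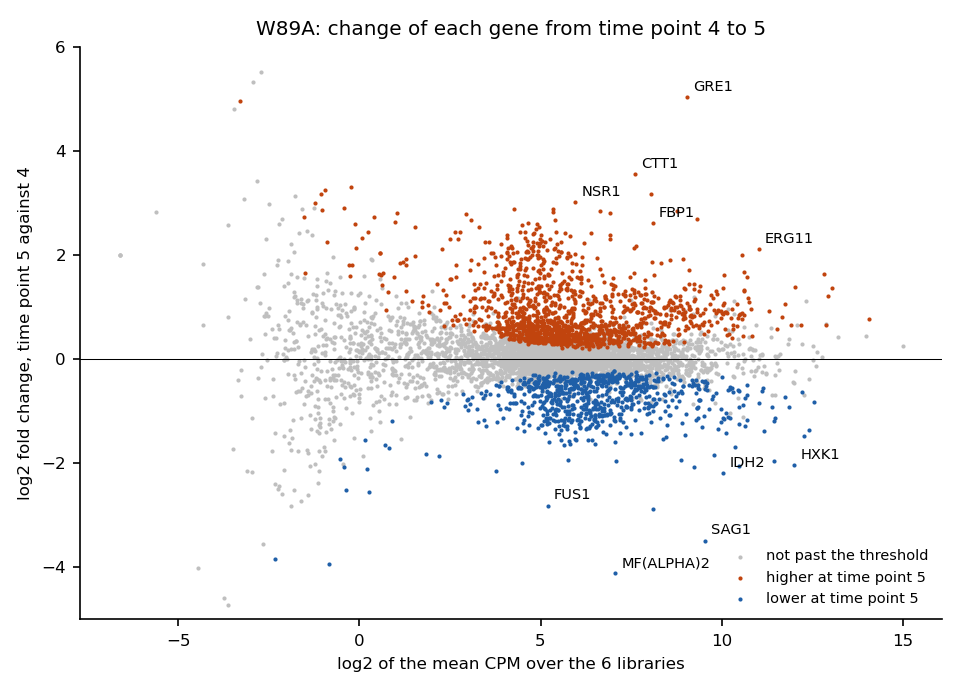
Log2 fold change of W89A time point 5 against 4 for each tested gene (vertical axis) against the log2 of its mean CPM over the 6 libraries (horizontal axis). Red and blue points are the 1446 higher and 756 lower genes past the threshold, grey points did not pass, and 5 genes lie beyond the vertical range.

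The ribosome biogenesis genes, whose products cut, modify and assemble ribosomal RNA in the nucleolus, rose almost without exception. Of 145 members, 144 were higher and 0 lower, with a median log2 fold change of 1.84, and 131 rose at least 2-fold. ESF1 alone did not pass, at 0.52 ± 0.21. Of the 14 named genes with the highest fold change, 7 held the letters GATGAG, known as the PAC motif, on either strand within 300 bases before the start codon, and 6 held AAAATTTT, the core of the RRPE motif. PAC stood in 128 of 145 biogenesis promoters (88.3%) and in 18.6% of the 5808 tested genes with a window. RRPE core letters stood in 111 of 145 (76.6%), against 9.5% of all. The promoters of 4 of the 7 are shown to let the motifs be compared, 2 from ribosome assembly genes and 2 from metabolic genes that moved with them. Each line gives the first 200 bases of the 300, on RefSeq's R64 assembly, 5′ to 3′ on the gene's strand, with PAC and RRPE core letters in capitals.
NSR1, chrVII:807757-807956, minus strand: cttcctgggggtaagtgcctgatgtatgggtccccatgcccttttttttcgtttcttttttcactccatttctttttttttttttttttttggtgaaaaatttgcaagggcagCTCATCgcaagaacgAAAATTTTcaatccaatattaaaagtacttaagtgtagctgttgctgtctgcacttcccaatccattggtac
NSA2, chrV:414280-414479, minus strand: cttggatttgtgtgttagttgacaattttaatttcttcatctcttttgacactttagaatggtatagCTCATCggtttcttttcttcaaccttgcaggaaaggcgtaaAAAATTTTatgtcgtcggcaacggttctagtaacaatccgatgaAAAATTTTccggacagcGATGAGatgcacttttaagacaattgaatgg
URA7, chrII:145829-146028, minus strand: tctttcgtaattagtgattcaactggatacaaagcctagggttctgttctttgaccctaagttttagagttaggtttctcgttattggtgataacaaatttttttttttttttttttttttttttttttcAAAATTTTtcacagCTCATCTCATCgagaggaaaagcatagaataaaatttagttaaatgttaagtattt
RKI1, chrXV:504429-504628, minus strand: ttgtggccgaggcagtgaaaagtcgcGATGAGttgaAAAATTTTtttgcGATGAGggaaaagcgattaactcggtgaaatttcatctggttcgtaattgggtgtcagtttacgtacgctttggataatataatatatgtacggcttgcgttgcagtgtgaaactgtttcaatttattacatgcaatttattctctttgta
NSA2 shows 2 copies of each motif, RKI1 has 2 PAC copies around its RRPE core, and the 2 PAC copies of URA7 overlap. A match of letters is a description and not a shown binding site.

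NSR1 (YGR159C, chrVII:806412-807656) encodes a nucleolar protein needed for processing of the pre-rRNA. It stood at 6.73, 8.12 and 25.9 CPM at time point 4 and at 126, 108 and 100.1 CPM at time point 5. The cycle 3 library of time point 4 was the highest of its group. The log2 fold change was 3.02 ± 0.42 (SE, n = 3 and 3; edgeR quasi-likelihood adjusted p = 6.39e-06), and 3.90 without that library.

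NSA2, an assembly factor of the large subunit, had 8.79, 8.30 and 17 CPM at time point 4 and 71.7, 72.8 and 73.9 CPM at time point 5. The time point 5 libraries lay close together, and the log2 fold change was 2.67 ± 0.30 (edgeR adjusted p = 3.54e-07). PXR1, which acts in rRNA and small nucleolar RNA maturation, went from 3.21, 3.91 and 6.50 CPM to 39.2, 33.2 and 29.7 CPM, a log2 change of 2.88 ± 0.34. UTP14, of the small subunit processome, rose by 2.59 ± 0.38 on the log2 scale and SSF1, of large subunit maturation, by 2.61 ± 0.30. The 3 members of the list with the smallest p were UTP25, at 2.33 ± 0.22, NAN1, at 1.87 ± 0.21, and NMD3, the export adapter of the large subunit, at 1.69 ± 0.20.

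URA7 encodes a CTP synthase and RKI1 the ribose-5-phosphate isomerase of the pentose phosphate pathway, so both supply nucleotide precursors. URA7 had 6.48, 5.39 and 17 CPM at time point 4 and 76.4, 76.4 and 64 CPM at time point 5. RKI1 went from 3.51, 8.42 and 17.8 CPM to 74.0, 79.2 and 60.4 CPM. Both genes had their highest time point 4 value in cycle 3, and the log2 changes were 2.89 ± 0.37 and 2.82 ± 0.36.

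Ribosomal proteins and the transcription and translation machinery moved the same way with smaller changes. Of 137 cytosolic ribosomal protein genes, 123 were higher and 0 lower, with a median of 0.96. Without the cycle 3 library of time point 4 these became 131 and 1.31, with both first-cycle libraries left out 84 and 0.78, and in a fit on only the libraries compared 53 and 0.84. RPS14B, of the small subunit, had 105, 115 and 174 CPM at time point 4 and 311, 339 and 362 CPM at time point 5, without overlap, a log2 change of 1.36 ± 0.19. Reads of the near-identical ribosomal protein copies may be split between them, and the largest value of the list, RPL39 at 5.52 ± 2.21, did not pass. PAC letters stood in 16 of these 137 promoters (11.7%).

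The RNA polymerases that make ribosomal and transfer RNA followed, with 24 of 36 listed genes for polymerases I and III higher, 0 lower and a median of 0.82. RPA135, the second largest subunit of RNA polymerase I, rose from 27.9, 26.7 and 66.0 CPM to between 198 and 200.4 CPM in each of the 3 libraries of time point 5, a log2 change of 2.31 ± 0.29. RPC19, a subunit that polymerases I and III share, rose by 1.61 ± 0.19. The 12 members that did not pass encode initiation factors or, for MAF1, a repressor, among them the TFIIIC subunit genes TFC1 at -0.20 ± 0.11 and TFC8 at 0.02 ± 0.16. Of 53 tested translation factor and tRNA synthetase genes, 39 were higher and 0 lower, with a median of 0.53. Without the first cycle 21 were higher, and in the fit on only the libraries compared 15. The members with the smallest p were GCD2 at 0.79 ± 0.12, SUP35 at 0.71 ± 0.12 and NIP1 at 1.12 ± 0.20, which encode an initiation factor subunit, a termination factor and another initiation factor subunit.

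**Figure D2:**
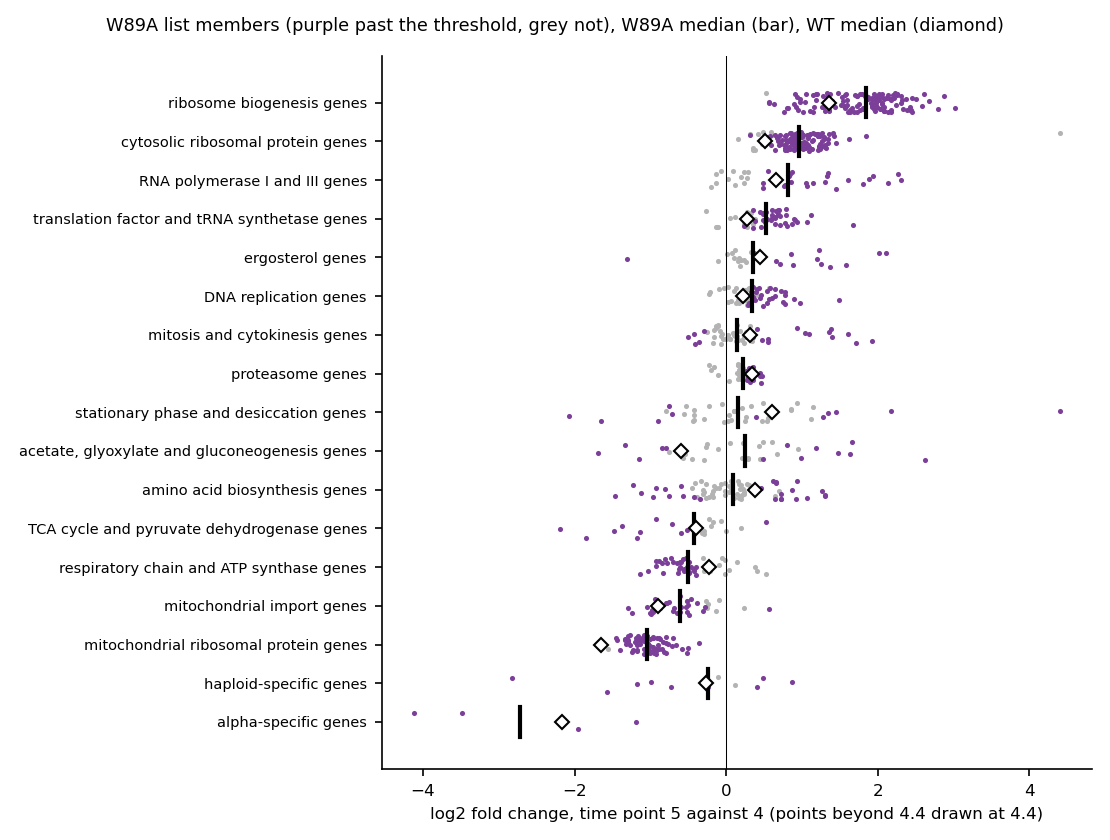
Log2 fold change of W89A time point 5 against 4 (horizontal axis) of each tested member of 17 gene lists, purple where past the threshold, with the W89A median as a bar and the WT median as a diamond. Ribosome biogenesis lies furthest to the right, with a W89A median of 1.84, and the alpha-specific genes furthest to the left, at -2.72.

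The mitochondrial counterpart fell. Of 75 mitochondrial ribosomal protein genes, which encode the ribosome that translates the mitochondrial genome, 74 were lower and 0 higher, with a median of -1.05. MRPL38 was the exception, at -1.56 ± 0.92. MRPS9 had 294, 304 and 199 CPM at time point 4 and 111, 98.5 and 84.2 CPM at time point 5. All time point 5 values lay below all time point 4 values, and the log2 change was -1.44 ± 0.13 (edgeR adjusted p = 1.18e-08).

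Of 37 mitochondrial import genes, 29 were lower and 1, TIM21, was higher, with a median of -0.61. SSC1, the Hsp70 that pulls proteins into the matrix, fell from 2129.7, 2315 and 1567 CPM to 884, 863 and 805 CPM, a log2 change of -1.24 ± 0.15. TOM20, an outer membrane receptor, fell by 0.98 ± 0.12 on the same scale. Of 44 tested respiratory chain and ATP synthase genes, 30 were lower and 0 higher, with a median of -0.50. NDI1, the internal NADH dehydrogenase, had 1405, 1477 and 1626 CPM at time point 4 and 861, 767 and 581 CPM at time point 5.

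In the TCA cycle, 10 of 21 genes were lower and 1 higher, with a median of -0.42. The NAD-dependent isocitrate dehydrogenase stood out in both of its subunits. IDH2 had 1406, 1495 and 2249.8 CPM at time point 4 and 455, 391 and 285 CPM at time point 5, a log2 change of -2.19 ± 0.23 (edgeR adjusted p = 7.59e-08). IDH1 changed by -1.85 ± 0.17 and ACO1, the aconitase, by -1.48 ± 0.16. MPC1, a subunit of the mitochondrial pyruvate carrier, was the higher member, at 0.52 ± 0.16, and did not pass without the cycle 3 library of time point 4.

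The alpha-specific genes fell as a group, and the haploid-specific genes went both ways. All 4 alpha-specific genes were lower, with a median of -2.72. Of 12 haploid-specific genes, 6 were lower and 3 higher, against 12.1% and 23.1% over all genes. The haploid-specific median was -0.24. The labelled alpha cell type was checked against its markers. The alpha-specific genes summed to 5252 to 6698 CPM in the W89A libraries of time point 4 and 1815 to 2116 CPM at time point 5, while the 7 a-specific genes summed to 43.3 to 69.9 CPM over all 6, with 0 changed, although 3 of the 7 passed as higher without the cycle 3 library of time point 4. Of the 19 tested meiosis and sporulation genes 0 changed.

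MF(ALPHA)2 (YGL089C, chrVII:344791-345153), one of the alpha-factor pheromone genes, had 256, 286 and 210.1 CPM at time point 4 and 17.7, 16 and 9.53 CPM at time point 5. The groups were far apart, with a log2 change of -4.12 ± 0.41 (edgeR adjusted p = 5.79e-08). SAG1, the alpha-agglutinin of the cell surface, fell from 1634, 1391 and 1035 CPM to 134, 120.1 and 108 CPM, and STE3, the receptor for a-factor, from 752, 751 and 730.5 CPM to 198, 189 and 190.2 CPM. MF(ALPHA)1, the major pheromone gene, changed by -1.19 ± 0.20.

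FUS1, AGA1 and TEC1 were also among the 14 lowest genes. FUS1, of the mating cell fusion machinery, had 65.1, 53.5 and 74.0 CPM at time point 4 and 12.2, 7.28 and 7.83 CPM at time point 5. AGA1, the anchor of the agglutinin of a cells, went from 521, 379 and 539 CPM to 81.3, 61.0 and 53.2 CPM. TEC1, a transcription factor of filamentous growth, went from 229.7, 208 and 205 CPM to 58.9, 55.6 and 50.6 CPM. The log2 changes of the 3 genes were -2.82 ± 0.25, -2.88 ± 0.32 and -1.96 ± 0.20. Among the 6 lower haploid-specific genes, STE12, the transcription factor of the mating pathway, changed by -0.99 ± 0.19, the mating kinase FUS3 by -1.57 ± 0.19 and the cell cycle inhibitor FAR1 by -1.17 ± 0.21. The higher haploid-specific genes were HO, NEJ1 and RME1, and NEJ1 and RME1 did not pass in most fits that left out 1 of the 6 libraries.

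The letters TGAAACA, the pheromone response element bound by Ste12, stood on either strand in the 300-base window of 4 of the 14 lowest genes, against 7.1% of all 5808 windows and 1 of the 14 highest. The 3 promoters that follow are shown because these genes fell together, as the first 200 bases of the window on R64, 5′ to 3′ on the gene's strand, with the element in capitals.
FUS1, chrIII:71503-71702, plus strand: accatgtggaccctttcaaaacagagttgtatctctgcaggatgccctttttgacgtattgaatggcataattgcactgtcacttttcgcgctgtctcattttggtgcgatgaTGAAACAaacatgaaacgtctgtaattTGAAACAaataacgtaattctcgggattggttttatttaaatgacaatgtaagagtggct
AGA1, chrXIV:703399-703598, plus strand: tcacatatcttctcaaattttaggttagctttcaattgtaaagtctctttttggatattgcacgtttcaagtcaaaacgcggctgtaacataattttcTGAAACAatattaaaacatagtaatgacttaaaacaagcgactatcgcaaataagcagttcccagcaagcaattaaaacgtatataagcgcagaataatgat
TEC1, chrII:408869-409068, plus strand: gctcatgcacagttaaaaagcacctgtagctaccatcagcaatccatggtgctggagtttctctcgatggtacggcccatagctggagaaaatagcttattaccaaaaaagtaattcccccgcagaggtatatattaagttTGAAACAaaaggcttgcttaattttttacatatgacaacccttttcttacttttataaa
In the bases printed, FUS1 shows 2 copies in the same orientation, and AGA1 and TEC1 show 1 each.

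**Figure D3:**
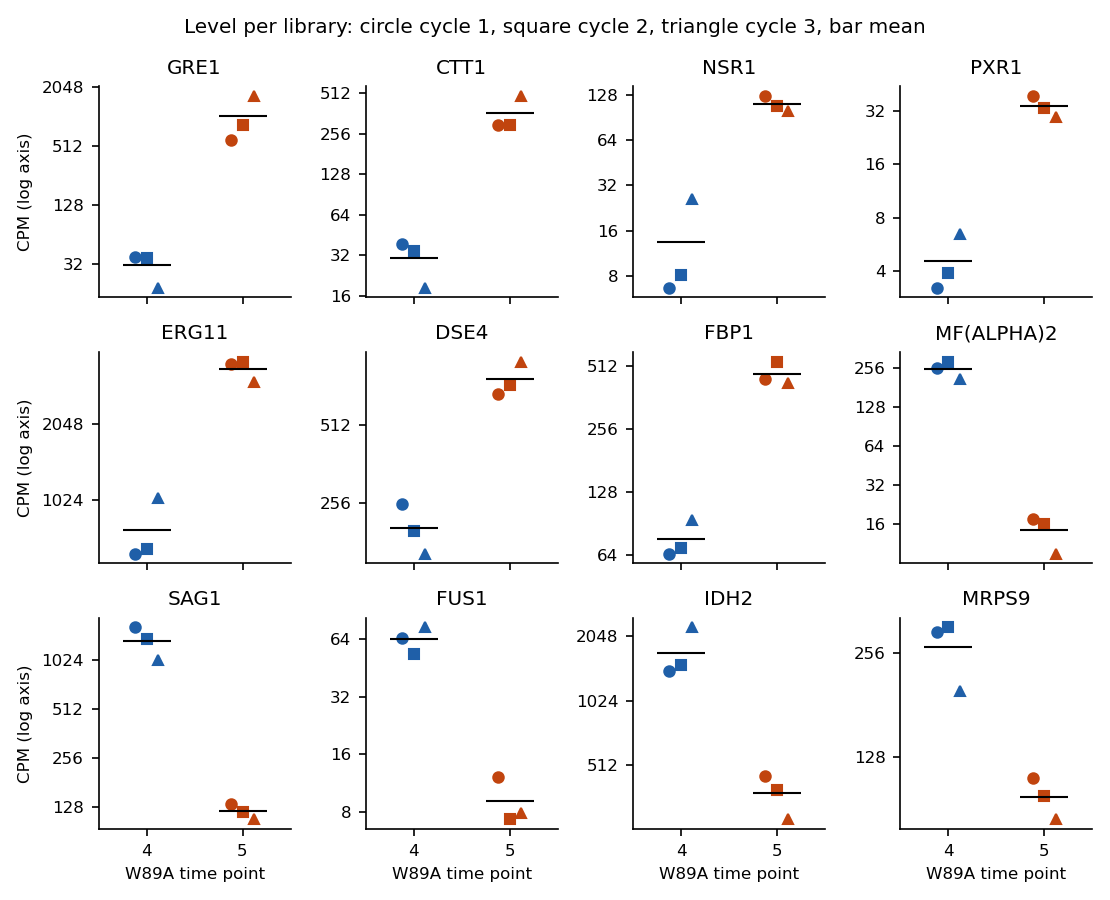
Level of 12 named genes in each W89A library of time points 4 (blue) and 5 (red), as CPM on log axes that differ between panels, with circles for cycle 1, squares for cycle 2, triangles for cycle 3 and a bar at the mean. In each panel the 3 libraries of time point 5 lie on one side of the 3 of time point 4. For genes named as highest or lowest, such as GRE1, the choice itself required this separation, so it is no separate result. GRE1 lies between 587 and 1664 CPM at time point 5 against 18.5 to 38 CPM at time point 4.

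Among genes of stress and stationary phase a few rose steeply while most did not pass. GRE1, a hydrophilin induced by dehydration, had the largest change of the named genes. It stood at 38, 37.3 and 18.5 CPM at time point 4 and at 587, 833 and 1664 CPM at time point 5, a log2 change of 5.04 ± 0.73 (edgeR adjusted p = 8.56e-06). CTT1, the cytosolic catalase, rose from 39.0, 34.7 and 18.4 CPM to 296, 298 and 489 CPM, a log2 change of 3.56 ± 0.44. For both genes cycle 3 was the lowest library at time point 4 and the highest at time point 5.

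As a background for the lists in this paragraph, 23.1% of all genes tested were higher and 12.1% lower. Of the 42 stationary phase and desiccation genes as a whole, 6 were higher and 5 lower, not above these shares, with a median of 0.16. AIM17, RGI1 and MRK1 were among the lower ones, with AIM17 at -2.07 ± 0.28. Of 41 heat shock and chaperone genes, 7 were higher and 5 lower. SSA3, an inducible Hsp70, rose from 214, 224 and 79.3 CPM to 849.6, 1012 and 1484 CPM. SSB1, an Hsp70 that binds nascent chains on ribosomes, rose by 1.45 ± 0.30, whereas CPR6, a cyclophilin that works with Hsp90, fell by 0.93 ± 0.21 on the log2 scale. Of 39 oxidative stress genes, 8 were higher and 4 lower.

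PMA2, SDH9 and HEF3, also among the highest genes, each have a close paralog, and the paralogs did not follow one pattern. PMA2, a minor plasma membrane proton pump, rose by 2.85 ± 0.43, whereas PMA1, the main pump, had -0.01 ± 0.18. SDH9, a minor flavoprotein of succinate dehydrogenase, rose by 2.81 ± 0.40, whereas SDH1 changed by -0.93 ± 0.16. HEF3 and YEF3, copies of the translation elongation factor 3, rose by 2.84 ± 0.47 and 1.67 ± 0.33. The paralogs PMA1, SDH1 and YEF3 were chosen after their values were seen, and reads of such similar genes may be shared.

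Lists of carbon metabolism held genes of both directions, and 23.1% of all genes tested were higher and 12.1% lower. Of 32 acetate, glyoxylate and gluconeogenesis genes, 8 were higher and 5 lower, near the shares over all genes, with a median of 0.25. FBP1 (chrXII:873746-874792), the fructose-1,6-bisphosphatase of gluconeogenesis, had 65.1, 69.2 and 94.6 CPM at time point 4 and 446, 538 and 427 CPM at time point 5, a log2 change of 2.62 ± 0.23. SIP4, an activator of gluconeogenic genes, rose by 1.66 ± 0.17, whereas ACH1, a mitochondrial CoA transferase for acetate, fell by 1.69 ± 0.26. Of 25 glycolysis genes, 3 were higher and 4 lower. HXK1, a hexokinase, went from 8505, 8039 and 3201 CPM to 1656, 1663 and 1481 CPM, and ADH1, the main fermentative alcohol dehydrogenase, from 5172, 6109 and 1913 CPM to 1188, 1203 and 1010.1 CPM. For both, the cycle 3 library of time point 4 was the lowest of its group and, as the choice of these genes required, above all 3 of time point 5. SUC2, the invertase, changed by -2.05 ± 0.24. Of 23 trehalose and glycogen genes, 5 were lower and 1 higher.

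In sterol synthesis 12 of 26 genes were higher and 1 lower, with a median of 0.35. ERG11, the lanosterol demethylase, went from 634, 663 and 1046 CPM to 3519, 3589.9 and 2996 CPM, a log2 change of 2.11 ± 0.17 (edgeR adjusted p = 1.60e-09). ERG25, a sterol methyl oxidase, rose by 2.01 ± 0.16 and IDI1, an isoprenoid isomerase, by 1.20 ± 0.12. ERG4, which encodes the last enzyme of the pathway, was the lower member, at -1.31 ± 0.19. Of 33 fatty acid and phospholipid synthesis genes, 11 were higher and 6 lower, against 23.1% and 12.1% over all genes. INO1 and ACC1 were among the higher and PIS1 and SLC1 among the lower.

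Other lists depended on 1 library or on the scaling. Amino acid biosynthesis had 15 of 72 genes higher and 11 lower, near the 23.1% and 12.1% over all genes. It had 38 higher and 13 lower without the cycle 3 library of time point 4. Nitrogen catabolite genes went from 7 to 14 higher of 29 without it. DAL5, an allantoate transporter, shows this: it had 33.7, 43.4 and 304 CPM at time point 4 and 47.1, 39.9 and 43.4 CPM at time point 5, and its log2 change of -1.55 ± 0.54 became 0.17. Proteasome genes had 19 of 45 higher and 0 lower, but 5 higher without that library and 3 with the scaling that leaves out the most abundant genes. DNA replication genes had 29 of 54 higher, 14 with that scaling, 16 without the first cycle and 5 in the fit on only the libraries compared. Among them, MCM7, a subunit of the replicative helicase, changed by 0.90 ± 0.10, and RNR3, a ribonucleotide reductase subunit, by 1.49 ± 0.22. Without the cycle 3 library of time point 4, stationary phase genes went from 6 to 3 higher and from 5 to 7 lower, and the lower heat shock genes and the lower trehalose and glycogen genes each went from 5 to 8. Without the first cycle the higher acetate, glyoxylate and gluconeogenesis genes went from 8 to 4.

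The genes YAF9, SWR1 and HTZ1 did not pass, and some complex subunit genes rose, in numbers that depended on the setting. YAF9 had 19.4, 22.8 and 22.5 CPM at time point 4 and 22, 27.5 and 29.5 CPM at time point 5. The groups overlapped, and the log2 change of 0.29 ± 0.14 did not pass (edgeR adjusted p = 0.125). SWR1, the catalytic ATPase, had -0.01 ± 0.13 and HTZ1 had -0.10 ± 0.14. Of 15 SWR1 complex genes 5 were higher and 0 lower, against 23.1% and 12.1% over all genes. Among them were BDF1, a bromodomain protein, at 0.97 ± 0.11 and the helicase RVB1 at 0.83 ± 0.12. With RLE size factors, with the scaling that leaves out the most abundant genes and without the first cycle, 3 were higher. The fit on only the libraries compared also gave 3. Of 13 NuA4 genes 4 were higher, with the scaffold EPL1 at 0.73 ± 0.12, and 2 without the cycle 3 library of time point 4. The scaling without the most abundant genes and the fit on only the libraries compared each left 1.

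The same step in WT was used to ask where W89A differed. In WT 2393 genes (38.3%) passed, 1612 (25.8%) higher and 781 (12.5%) lower, and 1534 genes were called in the same direction in both strains, 69.7% of the W89A calls and 64.1% of the WT calls. Of the 14 highest W89A genes 13, and of the 14 lowest 14, changed the same way in WT. Across all genes the changes correlated at r = 0.63, a description over genes that are not independent. The difference between the strains' changes passed for 44 genes (0.703%), with 16 (0.256%) more positive and 28 (0.448%) more negative in W89A, and 836 genes had an unadjusted p under 0.05. By title order these counts were 48 and 41, with both first-cycle libraries left out 3 and 16, and without the cycle 3 library of time point 4 they were 207 and 73.

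**Figure D4:**
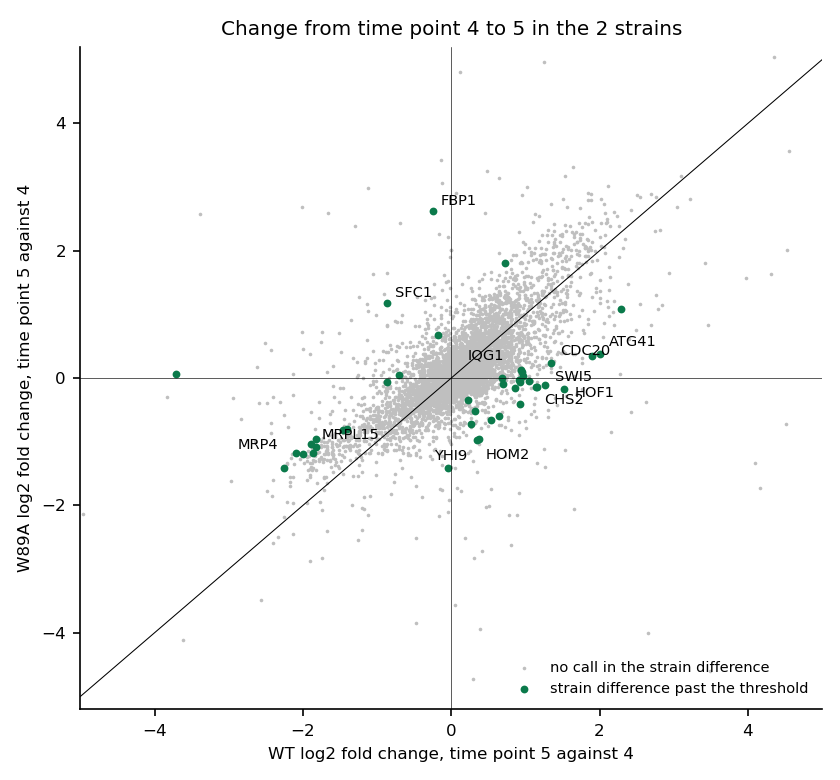
Log2 fold change of time point 5 against 4 in W89A (vertical axis) against WT (horizontal axis), with the line of equal change. Green points are the genes whose difference passed the threshold, among them FBP1 at 2.62 in W89A and -0.25 in WT, and 12 genes lie beyond the axes.

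FBP1 had the smallest p of the difference. In WT it stood at 481, 355 and 419 CPM at time point 4 and 413, 320.4 and 319.5 CPM at time point 5, with overlap. W89A lay below WT in every library of time point 4 and above WT in every library of time point 5. The difference in log2 change was 2.88 ± 0.31 (edgeR adjusted p = 6.21e-06). SFC1, the mitochondrial succinate-fumarate carrier, also rose in W89A, by 1.18 ± 0.30, and fell in WT, by 0.87. IRT1, a noncoding RNA at the IME1 locus, rose by 1.81 ± 0.15 in W89A and 0.72 ± 0.15 in WT.

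Several mitotic genes rose in WT and did not pass in W89A. Of 59 mitosis and cytokinesis genes, 15 were higher and 5 lower in W89A, and 27 and 4 in WT. Over all genes the shares were 23.1% and 12.1% in W89A and 25.8% and 12.5% in WT, so the higher W89A members were near the background. For 9 members the difference passed, all more negative in W89A, against 0.448% of all genes. Among the 9 were CHS2, CDC20, IQG1, HOF1, CLB1 and HST3. In the 12 fits that left out 1 library, CLB1 passed in 8 and HST3, with the smallest difference of the 9, in 5. All 9 rose in WT, by 0.69 to 1.90, and 0 of the 9 passed in W89A, at -0.17 to 0.34.

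CHS2, the chitin synthase of the primary septum, had 253, 239 and 196 CPM at time point 4 and 246, 196 and 182 CPM at time point 5 in W89A. In WT it went from 144, 121 and 116 CPM to 290.3, 292 and 258 CPM. The W89A groups overlapped and already lay above WT time point 4, and the difference in log2 change was -1.28 ± 0.19 (edgeR adjusted p = 0.00120). CDC20, the activator of the anaphase-promoting complex, had 32.7, 32.0 and 30.4 CPM and then 38.4, 35.9 and 37.4 CPM in W89A, against 21.1, 16.4 and 18 CPM and then 45.9, 50.9 and 44.8 CPM in WT. IQG1, which organises the contractile ring, differed by -0.86 ± 0.14. DBF2, a mitotic exit kinase outside the list, differed by -0.80 ± 0.14.

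DSE4, a glucanase that degrades the septum between mother and daughter and a member of the same list, had 253, 198 and 162 CPM at time point 4 and 675, 735 and 906 CPM at time point 5 in W89A. Its log2 change was 1.92 ± 0.20 in W89A and 1.82 ± 0.20 in WT, and the difference of 0.10 ± 0.27 did not pass.

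The letters GTAAACA, a forkhead binding site, stood on either strand in the window of 16 of the 59 mitosis and cytokinesis genes (27.1%), in 4 of the 9 that differed, and in 7.1% of all windows. The promoters of 2 of these 4 are shown as the first 200 bases of the window on R64, 5′ to 3′ on the gene's strand, with the site in capitals.
IQG1, chrXVI:95210-95409, minus strand: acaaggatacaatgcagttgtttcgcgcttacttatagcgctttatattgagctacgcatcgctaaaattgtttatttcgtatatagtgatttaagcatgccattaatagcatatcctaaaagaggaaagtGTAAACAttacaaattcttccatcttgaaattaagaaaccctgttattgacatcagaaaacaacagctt
HOF1, chrXIII:334998-335197, plus strand: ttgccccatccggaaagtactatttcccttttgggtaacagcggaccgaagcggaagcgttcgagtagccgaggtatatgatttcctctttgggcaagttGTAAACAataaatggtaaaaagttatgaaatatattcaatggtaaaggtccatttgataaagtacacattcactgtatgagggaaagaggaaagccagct
Both show 1 copy, and CHS2 and CDC20 have none in their windows.

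Mitochondrial ribosomal protein genes fell less in W89A. Their median was -1.05 in W89A and -1.65 in WT. The difference was positive for 74 of 75 members, and the median difference over all genes was -0.004. It passed as positive for 7 of the 75, against 0.256% of all genes. MRP4, of the small subunit, had 223, 209 and 183 CPM at time point 4 and 100.3, 89.6 and 81.1 CPM at time point 5 in W89A. In WT it had 317, 286 and 301 CPM and then 75.0, 58.9 and 77.3 CPM, so W89A was lower at time point 4 and higher at time point 5, without overlap. The difference in log2 change was 0.91 ± 0.17 (edgeR adjusted p = 0.00674). MRPL15, MRP13, MRP1 and RSM26 differed by 0.75 to 0.89, and the remaining 2, MRPL22 and MRPL13, passed in 6 and 5 of the 12 fits that left out 1 library.

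In amino acid synthesis 4 of 72 genes differed, HOM2, ILV6, ARO3 and ARO4. All were more negative in W89A, against 0.448% of all genes. HOM2 passed in all 12 fits that left out 1 library, ILV6 in 10, ARO4 in 8 and ARO3 in 5. HOM2, of the threonine and methionine pathway, had 811, 992 and 1385 CPM and then 492, 519 and 616 CPM in W89A, and 616, 631 and 626 CPM and then 748, 758 and 882 CPM in WT. ATG41, an autophagy gene, rose in WT by 2.01 and had 0.37 ± 0.20 in W89A, a difference of -1.64 ± 0.29. YHI9 fell in W89A by 0.96 ± 0.16 and had 0.38 in WT.

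Over the whole cycle, as in WT, the W89A libraries of time point 4 held the lowest ribosome biogenesis levels of the 5 time points. As in WT, they also held the highest mitochondrial ribosome levels. NSR1 averaged 537 ± 40.8 CPM (SD, n = 3) at time point 1, 1013 ± 84.4 at 2, 229 ± 182 at 3, 13.6 ± 10.7 at 4 and 111 ± 13.0 at 5. The rise at time point 5 thus left it below the levels of time points 1 and 2. MF(ALPHA)2 climbed from 24.9 ± 4.49 CPM at time point 1 to 251 ± 38 at 4 and stood at 14.4 ± 4.30 at 5. GRE1 was at 9.08 ± 2.02 CPM at time point 3 and 1028 ± 564 at time point 5. FBP1 peaked at time point 5 in W89A, at 471 ± 59.1 CPM, and at time point 4 in WT, at 418 ± 63.3, with a mean of 351 ± 53.8 at time point 5 in WT and libraries that overlapped between these time points.

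**Figure D5:**
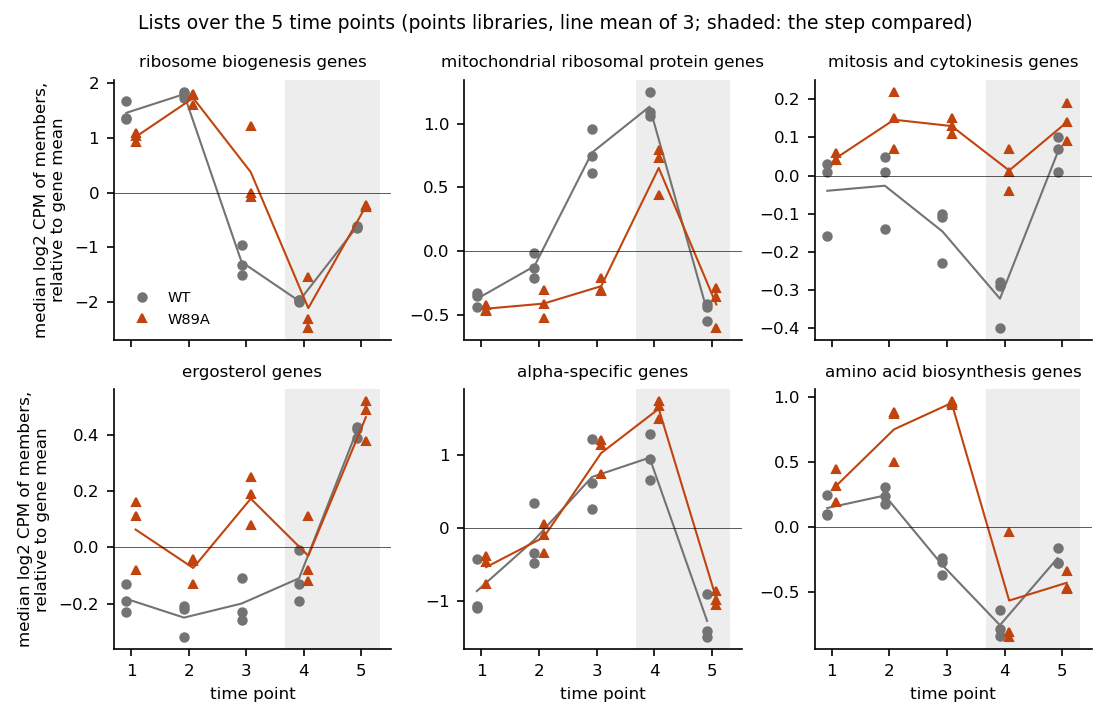
Median over list members of log2 CPM relative to each gene's mean over all libraries (vertical axis) at the 5 time points (horizontal axis), with a point per library, lines through the means of 3, WT in grey and W89A in red. In W89A the median of the ribosome biogenesis genes went from between -2.47 and -1.55 at time point 4 to between -0.27 and -0.22 at time point 5.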

How the data were processed

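Total RNA of 30 libraries was sequenced, and only the deposited table of whole-number read counts per gene was used, with 7127 features. The authors deposited counts per library, not normalized. The aligner, the counting tool and strand use are not given in the sources used here, so values of overlapping genes and similar copies are uncertain. The submitters' processing notes name mm9, a mouse build, although identifiers are those of yeast: 5892 of 5921 genes matched R64 in chromosome, start and end. All 30 libraries entered 1 edgeR 4.0.16 quasi-likelihood fit (R 4.3.3; TMM, filterByExpr, which removed 871 features, robust dispersions, a mean per group). P-values are 2-sided and Benjamini-Hochberg adjusted across the 6256 genes kept. DESeq2 1.42.0 was an alternative. On simulated data, the W89A comparison recovered 94 of 100 genes changed by 1 on the log2 scale and 99 of 100 changed by 2, with 8 false calls among 6230 genes. The simulation changed only these genes and drew independent libraries with none that stood apart. Its counts of recovered and false calls need not hold for the real comparison. Time points of the first-cycle W89A libraries follow the deposited tables. Named genes are the 14 highest and 14 lowest past the threshold without overlap that have a symbol and average 10 CPM or more, up to 3 list members per direction by p, 6 per direction of the strain difference, and YAF9, SWR1 and HTZ1. Other genes were named after their values were seen, and members and lists were chosen with earlier results of these data known. Motifs were searched on R64 in 300 bases before each start codon. Precision is limited by 3 libraries per group.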

Additional observations from a re-analysis of the deposited data

Results flagged for a closer look

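The 12 genes named by rule for the strain difference, 6 per direction, changed differently in W89A and WT by the edgeR quasi-likelihood test of the difference itself (W89A change minus WT change from time point 4 to 5, log2, Benjamini-Hochberg over all genes). The positive differences were 2.88 for FBP1, 0.87 for MRPL15, 0.91 for MRP4, 0.89 for MRP13, 0.75 for MRP1 and 0.81 for RSM26. The negative differences were -1.28 for CHS2, -1.12 for CDC20, -0.86 for IQG1, -1.33 for YHI9, -1.64 for ATG41 and -0.80 for DBF2. All 12 passed in each of the 12 fits that left out 1 library of the comparison. Other genes named in the text or by the rule also passed, at 2.05 for SFC1, 1.09 for IRT1, 0.64 for MRPL22, 0.69 for MRPL13, -1.32 for HOM2, -1.21 for STR3, -1.69 for HOF1, -1.56 for CLB1, -1.24 for ILV6, -1.34 for ARO4 and -1.29 for ARO3. Of these, HOM2, IRT1 and HOF1 passed in all 12 fits, SFC1 in 11 and STR3 in 6.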

How the results depend on the processing

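Calls depend on the first-cycle libraries. By title order 0 genes passed for W89A time point 5 against 4 (0 higher, 0 lower, 0 at least 2-fold), and in DESeq2 by title order, chosen after seeing the data, 2 passed (1 higher, 1 lower, 1 at least 2-fold). All 28 genes of largest change kept their direction by title order, at absolute log2 changes of 0.15 to 1.98, and all 28 passed with both first-cycle libraries left out. The 28 genes were picked from these same libraries, and cycles 2 and 3 enter both fits unchanged. Neither outcome is therefore a separate check of the placement or of these genes. A fit on only the libraries compared called 1408 genes, 646 of them higher. The strain difference counted 44 genes, 89 by title order, 342 by title order in DESeq2, 19 with both first-cycle libraries left out and 146 in DESeq2. Leaving out 1 library at a time gave 1815 to 2308 genes for the W89A step and 27 to 280 for the strain difference, the latter highest without W89A time point 4 of cycle 3. The main fit did not pair the libraries by cycle. In W89A, deviations from the group means correlated at 0.024, 0.112 and -0.027 within a cycle and at -0.095 to 0.05 between cycles. With means of 3 libraries these values cannot settle whether cycles pair the libraries. With cycle as a replicate block 2329 genes passed, with 77 for the strain difference. With 1 library left out DAL5 ranged from -2.01 to 0.17, reversed without W89A time point 4 of cycle 3, and FIT2 reversed to 0.02 by title order and 0.03 in DESeq2 by title order; the cause was not tested. RLE size factors, DESeq2, no filter and a stricter filter gave 2120, 2256, 2175 and 2180 genes. PRM6 and YGL118C, called in the strain difference, have very low counts.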
